A study of Flechtneria rotunda with 10 samples.

Results

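Rehydrated drops of the desert green alga Flechtneria rotunda were set against hydrated drops, to describe what still separates wet cells that have been dry from wet cells that have not. The comparison was fixed by stage: 2 rehydrated libraries and 2 hydrated libraries of the 10 in the series, over the 10467 genes of 17148 that passed a filter on low counts. Rehydrated drops of strain SEV3VF49 had dried flat on a cover glass, had been held in the drying chamber for a further 11 h until about 24 h from the start, and were collected 1 h after water was returned. Hydrated drops of the same strain were collected as soon as 40 µL of culture was placed on the glass. All cultures had been grown for 6 weeks in 150 mL of medium. No sample is labelled as a drop kept wet on the glass for as long as the rehydrated drops were there, so drying and time on the glass cannot be told apart. The other 6 libraries, used for the course of each gene and for comparisons in separate libraries, were from early desiccation (2.5 h, 25% of the volume lost), late desiccation (7.5 h, 60% lost) and the dry stage, with 2 libraries each.

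Desiccation-tolerant algae and plants survive the loss of nearly all cell water and resume metabolism when water returns. In mosses and resurrection plants, drying is known to raise transcripts for protective proteins, sugars and antioxidant enzymes. In slowly dried moss, part of the messenger RNA used after rewetting is known to be kept from the dry state. The genes of this series carry only the identifiers of a read assembly and the files pair them with no names, so none can be assigned to these pathways. Genes are grouped here by direction, level, course over the stages and shared assembly component. The identifiers come without sequences in the files, so none is shown.

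Total expected counts were 2736467 and 1696655 in the rehydrated libraries, against 2923437 and 2540583 in the hydrated libraries, over the deposited genes. Across the tested genes the rehydrated pair differed by a median of 0.53 in log2 CPM, and the hydrated pair by 0.32. CPM (a gene's share of the counts, scaled to a common library size) are here on the TMM scale, which sets libraries level on most genes. The stage means, rehydrated and hydrated, differed by a median of 0.95. Whether paired libraries stem from different flasks is not labelled, so the p-values cover library-to-library spread and that may be technical. The deposited table is named as one of differentially expressed genes, and how its genes were selected is not stated. Shares given here are therefore of that table and do not extend to all genes of the alga.

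An hour after water was returned, a large part of the tested genes differed from their hydrated level, in both directions. In rehydrated drops 2307 genes were higher and 2116 lower than in hydrated drops by edgeR's quasi-likelihood test with Benjamini-Hochberg adjustment at 0.05, which is 42.3% of the tested genes (22.0% higher, 20.2% lower). On the log2 scale the fold change of the higher genes had a median of 2.05 and quartiles of 1.37 and 3.10. That of the lower genes had a median of -2.02 and quartiles of -2.83 and -1.43, and the median standard errors were 0.34 and 0.44. With the 68 higher genes that had 0 counts in hydrated and the 91 lower genes that had 0 counts in rehydrated held at a floor of 3 counts over the stage, the medians were 2.04 and -1.98. On that basis 1177 higher and 1041 lower genes differed by at least 4-fold, and 284 and 150 by at least 16-fold. A fitted difference of less than 2-fold was found for 217 of the higher and 136 of the lower genes. That these are few was partly fixed by the call, which favours large fitted changes. Tested against a 2-fold minimum, 1371 genes were higher and 1011 lower. When only library totals were used for scaling, 1721 genes came out higher and 2360 lower, and the median log2 fold change over the tested genes was -0.35 instead of -0.09. Directions given here hold on the TMM scale. Neither the cells in a drop nor their RNA content was measured, and both scalings are relative within a library. Whether drops differed in cells or in RNA per cell therefore cannot be read from either.

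Each rehydrated library was also set against the hydrated mean. The genes were called from these same 4 libraries, so agreement of the 2 rehydrated ones was largely fixed by the call and the values are a description. Genes called higher stood above the hydrated mean by a median log2 of 1.89 in rehydrated replicate 1 and 1.995 in replicate 2, and genes called lower stood at -1.76 and -1.91. Of the genes called higher, 2296 had both rehydrated libraries above both hydrated libraries in CPM, an order that 33.0% of all tested genes showed. The 2116 genes called lower all had both rehydrated libraries below both hydrated ones, as did 36.8% of all tested genes. Without rehydrated replicate 2, 2117 genes were higher and 1662 lower, and without replicate 1 the counts were 2132 and 1822.

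**Figure D1:**
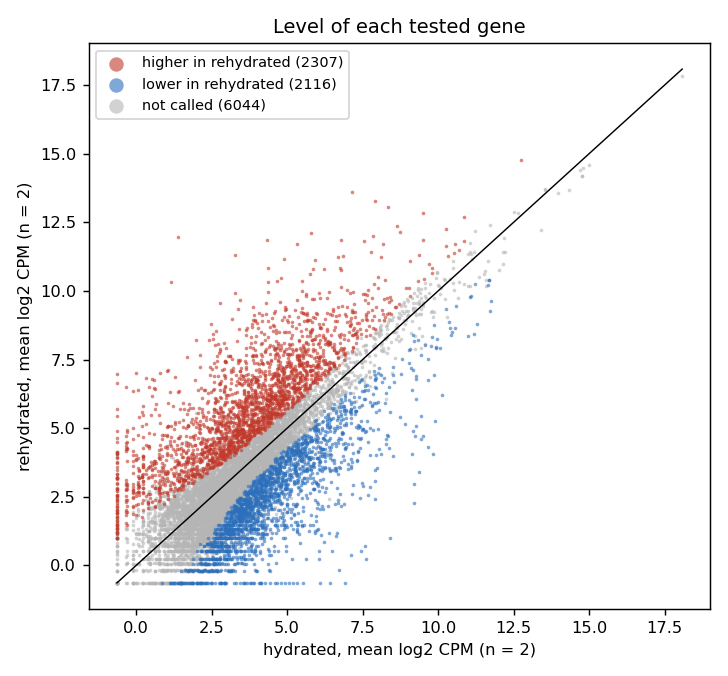
Mean log2 CPM of each of 10467 tested genes in rehydrated libraries (vertical axis, n = 2) and hydrated libraries (horizontal axis, n = 2), with the diagonal marking equal levels. The 2307 genes called higher lie above the diagonal and the 2116 called lower lie below it. Most of the 6044 genes not called lie near the diagonal, though 1319 of them had a fitted difference of at least 2-fold.

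The 6044 genes that were not called are not thereby shown to have returned to the hydrated level. The 95% interval of the log2 fold change lay inside a 2-fold difference either way for 988 genes, 9.44% of those tested. The median half-width of the interval was 0.95 on the log2 scale, which is nearly a 2-fold change. Among the genes not called, 1319 had a fitted difference of at least 2-fold that the spread between libraries did not set apart from 0.

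How the directions were shared out over weak and strong genes depended on which libraries set the level. Quartiles of mean log2 CPM at early desiccation use none of the 4 libraries compared. In the highest of these quartiles 822 of 2617 genes (31.4%) were higher in rehydrated drops and 702 (26.8%) were lower, both above the shares among all tested genes. In the lowest, 478 of 2617 genes (18.3%) were higher and 259 (9.90%) lower. The filter on low counts used all 10 libraries, so a gene weak at early desiccation could pass it through rehydrated or dry libraries. Shares in the lowest quartile of a single stage are therefore partly set by the filter. By the hydrated libraries alone, the highest quartile had 27.2% higher and 32.7% lower genes, and the lowest had 21.3% and 3.44%. By the mean over all 10 libraries, which holds the rehydrated and dry libraries in which the higher genes stand high, the highest quartile had 44.8% higher and 17.1% lower genes, and the lowest 7.87% and 16.3%. A gene's own change thus enters its quartile, upwards for higher genes with the mean over all libraries and upwards for lower genes with the hydrated libraries. No lean of strong genes to one direction held under all 3 ways. The quartiles of early desiccation and of hydrated were added after the data were seen. Low counts give less precision, with a median interval half-width of 1.81 in the lowest quartile over all libraries and 0.63 in the highest.

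**Figure D2:**
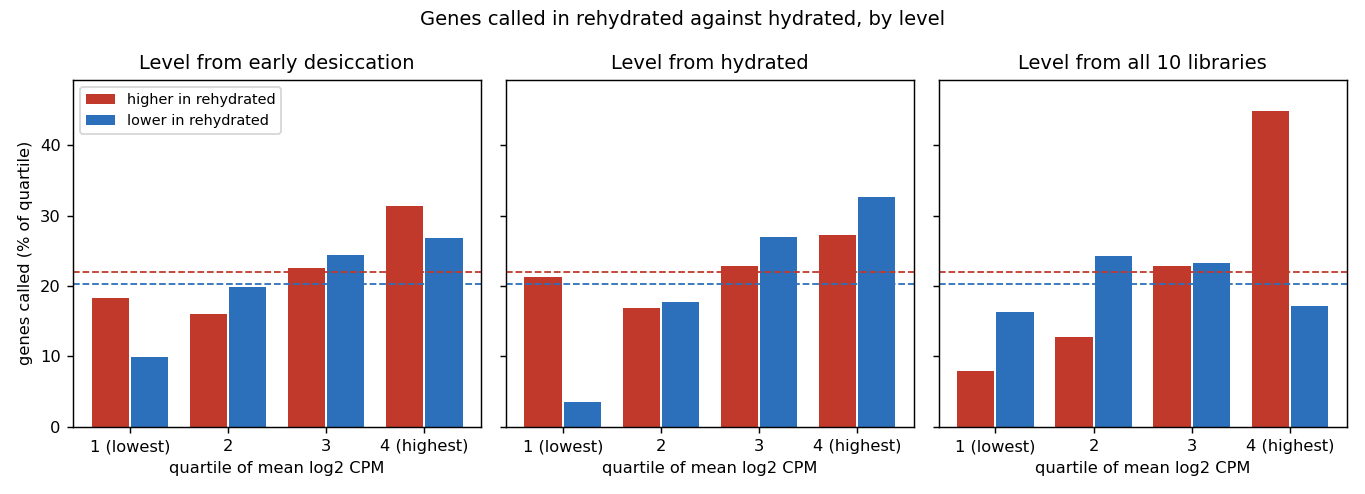
Share of genes called higher (red) and lower (blue) in rehydrated against hydrated drops, in percent of each quartile of mean log2 CPM, with quartiles set by early desiccation (left), by hydrated (middle) and by all 10 libraries (right), and dashed lines at the shares among all tested genes (22.0% and 20.2%). In the highest quartile the red and blue shares are 31.4% and 26.8% on the left, 27.2% and 32.7% in the middle and 44.8% and 17.1% on the right.

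Among the most abundant transcripts, levels were compared per length, in the authors' deposited TMM-scaled values. Of the 100 genes with the highest mean deposited value at early desiccation, 29 were higher in rehydrated drops and 7 were lower. Among all tested genes 22.0% were higher and 20.2% lower. Of the 100 highest in rehydrated drops 49 were higher and 1 was lower, of the 100 highest in hydrated drops 23 were higher and 10 lower, and of the 100 highest over all libraries 39 and 3, and all of these lists but the first were ranked with libraries that enter the comparison. The 100 highest genes of the rehydrated stage and the 100 highest of the hydrated stage had 73 in common. Only 4 of the 100 highest in rehydrated drops lay outside the 1000 highest in hydrated drops, and the 100 highest in hydrated drops all lay within the 1000 highest in rehydrated drops.

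Genes called higher held 30.1% and 49.1% of the tested counts in the rehydrated libraries, against 8.47% and 9.90% in the hydrated libraries. Genes called lower held 3.33% and 3.49% in rehydrated and 14.2% and 15.6% in hydrated libraries. The sets were picked from these same libraries. The share of the higher genes in rehydrated replicate 2 stood well above that in replicate 1. These are shares of counts before TMM scaling, whose factors were 0.715 for rehydrated replicate 1 and 1.03 for replicate 2. The single gene with the most counts was TRINITY_DN91380_c13_g1, which is outside the rule for named genes and was picked once its values were known. It took 29.5% and 13.5% of the tested counts in the rehydrated libraries, against 29.7% and 27.3% in the hydrated ones. On the TMM scale it did not pass the test (log2 fold change -0.03 with SE 0.53, edgeR adjusted p = 0.971).

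Few genes had reads in one stage and none in the other. With all 4 libraries thinned to 1696650 counts, 12351 and 12353 of the deposited genes had reads in the rehydrated libraries, against 12813 and 12993 in the hydrated libraries. At that depth 9786 genes had reads in all 4 libraries, 353 had reads in both rehydrated libraries and neither hydrated one, and 595 had reads in both hydrated libraries and neither rehydrated one. Most of these were genes with few reads. Only 27 had at least 10 counts in each rehydrated library with none in hydrated, and 40 had at least 10 counts in each hydrated library with none in rehydrated. Without thinning these counts were 28 and 44.

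The genes named next were taken by a rule on fold and level. Among genes called higher with reads throughout (at least 10 counts in each of the 4 libraries), TRINITY_DN63538_c2_g3 had the largest fold change. It stood at 2588 and 2469 CPM in the rehydrated libraries (5046 and 4311 counts), against 11.3 and 7.30 CPM in the hydrated libraries (32 and 20 counts). Both rehydrated libraries lay far above both hydrated ones, and the fitted difference was 271-fold (log2 fold change 8.08 with SE 0.71, edgeR adjusted p = 4.62e-06). In drying drops it was at 28.4 and 16.7 CPM at early desiccation and 349.8 and 92.6 CPM at late desiccation, and dry drops had 6525 and 3861 CPM. The difference of rehydrated from dry drops did not pass the test (log2 fold change -1.04 with SE 0.51, edgeR adjusted p = 0.228). By mean deposited value per length it ranked at 74 of 17148 genes in rehydrated drops and at 4949 in hydrated drops. The 1 other tested gene of its assembly component was also called higher, and reads may be split between them.

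Among the genes called higher, the one with the largest gain in mean CPM was TRINITY_DN91459_c1_g1. It had 24482 and 31435 CPM in the rehydrated libraries, against 6303 and 7567 CPM in the hydrated libraries (log2 fold change 2.01 with SE 0.34, edgeR adjusted p = 0.000551). The stages did not overlap. It took 1.75% and 3.25% of the tested counts of the rehydrated libraries, against 0.615% and 0.820% of those of the hydrated ones. Its course was not a steady climb, since it was lower at late desiccation, with 2069 and 2429 CPM, than in hydrated drops (log2 fold change -1.62 with SE 0.34, edgeR adjusted p = 0.00417). Dry drops then had 15254 and 21948 CPM, above early desiccation (log2 fold change 1.92 with SE 0.34, edgeR adjusted p = 0.000736). That contrast sets no rehydrated or hydrated library against another, though these libraries shared in the fit.

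Of the genes called lower with reads throughout, TRINITY_DN60208_c0_g1 had the largest fold change. It was at 9.75 and 10.3 CPM in the rehydrated libraries (19 and 18 counts), against 634.8 and 687 CPM in the hydrated libraries (1804 and 1884 counts). The fitted level was 65.7-fold lower in rehydrated drops (log2 fold change -6.04 with SE 0.46, edgeR adjusted p = 2.91e-06). It had already fallen at early desiccation, to 74.5 and 137.9 CPM (against hydrated, log2 fold change -2.64 with SE 0.37, edgeR adjusted p = 0.00133), and stood at 21.2 and 26.7 CPM at late desiccation and 8.37 and 23.2 CPM in dry drops. Rehydrated drops were no higher than dry drops, and the difference did not pass the test (log2 fold change -0.70 with SE 0.49, edgeR adjusted p = 0.397).

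Among the genes called lower, the largest loss in mean CPM was in TRINITY_DN65303_c4_g2. Rehydrated libraries had 881 and 426 CPM, against 4036 and 2746 CPM in hydrated libraries (log2 fold change -2.38 with SE 0.39, edgeR adjusted p = 0.000441). The stages did not overlap, but each pair was wide, and leaving out rehydrated replicate 1 gave a log2 fold change of -2.98, and leaving out replicate 2 one of -1.94. Without hydrated replicate 1 or 2 it was -2.07 or -2.61. Early desiccation had 1795 and 1191 CPM, below both hydrated libraries. That difference did not pass the test (log2 fold change -1.18 with SE 0.38, edgeR adjusted p = 0.0661). At late desiccation it stood at 2770 and 3054 CPM, within the range of the hydrated libraries, and in dry drops at 1258 and 984 CPM. Dry drops against early desiccation did not pass the test (log2 fold change -0.41 with SE 0.38, edgeR adjusted p = 0.391). The 1 other tested gene of its component was also called lower.

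**Figure D3:**
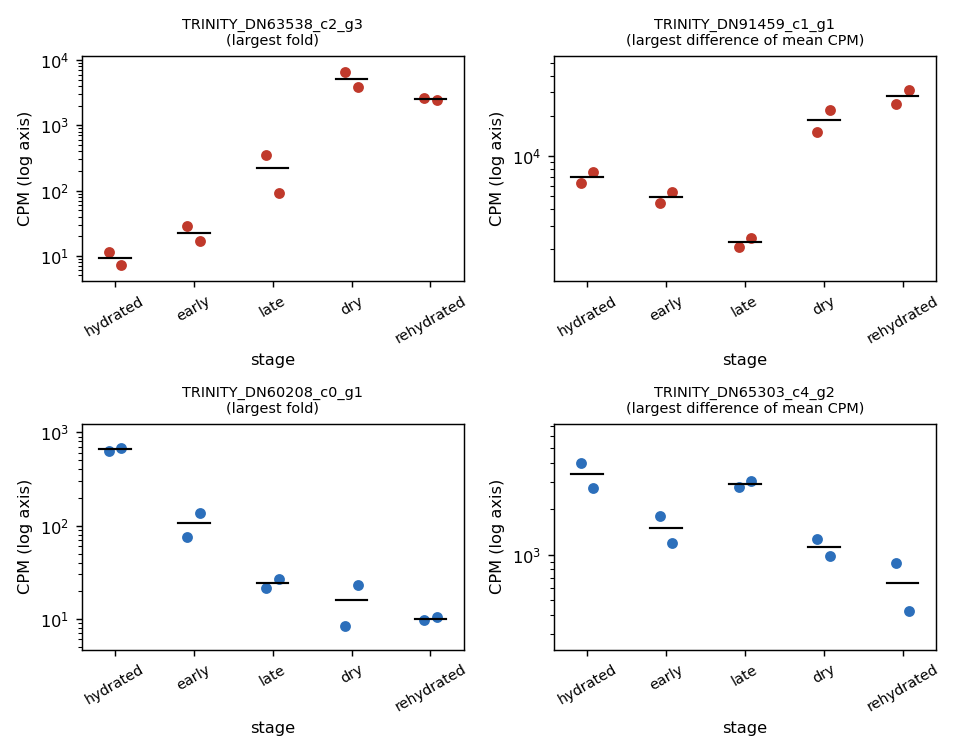
CPM of the 4 named genes (log axes, each with its own range) in every library of the 5 stages, with points for libraries and black bars for stage means (n = 2). The 2 genes in red are higher in rehydrated than in hydrated drops and the 2 in blue are lower, and in all 4 the rehydrated points lie on the same side of the hydrated points as the dry points do.

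Over the stages, the genes that separate rehydrated from hydrated drops stood nearer to hydrated while the drops lost water than they did at the dry stage. All comparisons with hydrated share the hydrated libraries, so their values are set side by side only. For the 2307 higher genes the median log2 fold change over hydrated was 0.26 at early and 0.59 at late desiccation, then 2.08 in dry drops and 2.05 in rehydrated drops. The 2116 lower genes had medians of -0.47, -0.85, -1.93 and -2.02 in the same order. For the 6044 genes not called the medians were 0.03, 0.10, -0.37 and -0.13. Between rehydrated and dry drops the median log2 fold change was -0.03 among higher genes (quartiles -0.59 to 0.59) and -0.14 among lower genes (quartiles -0.80 to 0.51). The middle of both sets was therefore near its dry level after an hour in water, with single genes on either side of it. Genes back at their hydrated level could not enter these sets, so part of this nearness was fixed by the choice.

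By stage means of log2 CPM, 1151 of the higher genes (49.9%) had their highest mean in dry drops and 1037 (45.0%) in rehydrated drops. A further 101 were highest at late and 18 at early desiccation. Of the lower genes, 1031 (48.7%) had their lowest mean in rehydrated drops and 906 (42.8%) in dry drops, with 141 lowest at late and 38 at early desiccation. These places are an ordering of means of 2 libraries and were not tested.

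**Figure D4:**
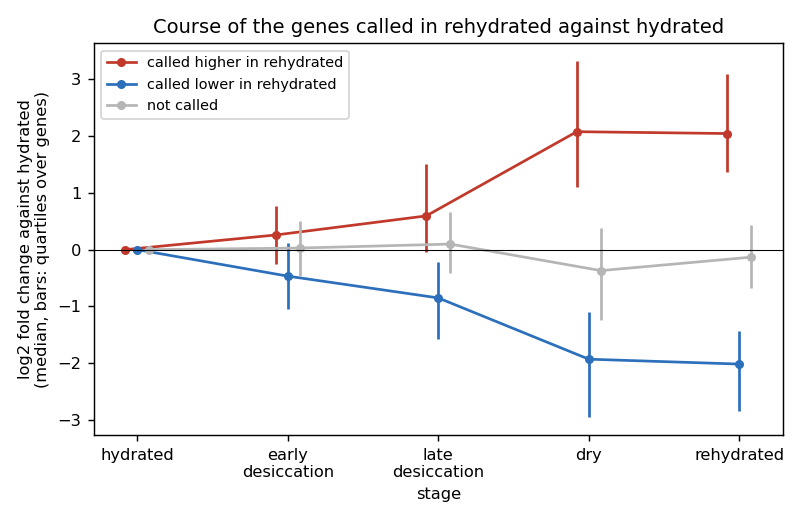
Median log2 fold change against hydrated at each stage for the genes called higher (red, 2307), called lower (blue, 2116) and not called (grey, 6044) in rehydrated against hydrated drops, with vertical bars for the quartiles over genes. Red and blue medians part mainly at the dry stage, at 2.08 and -1.93, and stand at 2.05 and -2.02 in rehydrated drops.

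The other libraries allowed a related but different question to be put, in a contrast of no rehydrated or hydrated library. The fit, filter and scaling behind it still took in all 10 libraries. Dry drops against early desiccation sets cells that are dry against cells that are still wet but have already lost some water. The dry drops had not been rewetted, so this contrast describes the dry state and is no repeat of rehydrated against hydrated. It called 2415 genes higher and 2263 lower. Of the genes higher in rehydrated than in hydrated drops, 1672 (72.5%) were also higher in dry drops than at early desiccation, where 23.1% of all tested genes were. Those 1672 were 69.2% of the genes higher in dry drops. Of the lower genes, 1131 (53.4%) were also lower in dry drops, where 21.6% of all tested genes were, and they made up 50.0% of the genes lower in dry drops. Opposite calls were made for 45 of the higher genes (1.95%) and 23 of the lower genes (1.09%). The median log2 fold change in dry against early desiccation was 1.88 among higher genes, -1.46 among lower genes and -0.26 among all tested genes.

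The balance between the 2 directions in that overlap depended on scaling. With library totals alone, 49.9% of higher genes and 86.2% of lower genes had the same call in dry against early desiccation, beside 9.57% and 51.7% of all tested genes. That scaling put the middle of all tested genes at a log2 fold change of -1.48 in dry against early desiccation. On both scales the shares of the called genes were above those of all tested genes.

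**Figure D5:**
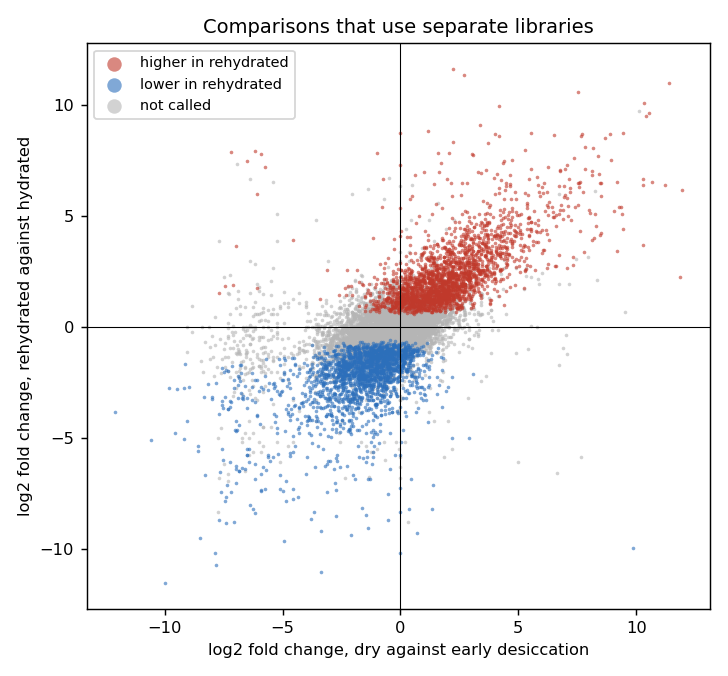
Log2 fold change of each tested gene in rehydrated against hydrated drops (vertical axis) and in dry drops against early desiccation (horizontal axis), fitted together but from separate libraries, coloured by the call in rehydrated against hydrated. Red points lie mostly to the right of 0 (median 1.88) and blue points mostly to the left (median -1.46).

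Late desiccation was a second starting point in separate libraries. Between dry drops and late desiccation, 1532 of the higher genes (66.4%) were higher and 834 of the lower genes (39.4%) were lower, beside 22.4% and 20.3% of all tested genes. Between late and early desiccation, before full drying, 379 of the higher genes (16.4%) were higher and 415 of the lower genes (19.6%) were lower, beside 6.11% and 5.85% of all tested genes. Seen from the other list, those were 59.2% of the 640 genes higher at late than at early desiccation and 67.8% of the 612 genes lower. The late libraries detected 16728 and 16972 genes, more than the other 8 did. These 2 libraries also had the largest totals of the series, at 3561533 and 5409197 counts. Without them in the fit 2125 genes were higher and 1903 lower in rehydrated against hydrated drops.

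Genes chosen on dry against early desiccation give a view from a contrast of other libraries. The rehydrated and hydrated libraries still shared the filter, the scaling and the estimate of the spread with it. The 2415 genes higher in dry drops had a median log2 fold change of 1.67 in rehydrated against hydrated drops (quartiles 0.69 to 2.83), and 2.03 in the comparison that chose them. The 2263 genes lower in dry drops had a median of -1.22 (quartiles -2.20 to -0.37), and -2.16 in the comparison that chose them, where the choice itself adds to the size. A further 720 of the genes higher in dry drops (29.8%) and 1087 of those lower (48.0%) were called in neither direction between rehydrated and hydrated drops. An interval inside a 2-fold difference from hydrated was found for 235 of the genes higher in dry drops (9.73%) and 217 of those lower (9.59%), close to the 9.44% of all tested genes.

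Part of the genes had no call in the separate libraries. No call in dry against early desiccation was made for 590 of the higher genes (25.6%) and 962 of the lower genes (45.5%). The 590 had medians of 0.30 in dry against early desiccation and 1.53 in rehydrated against hydrated drops. Against hydrated their medians were 0.56 at early desiccation and 0.78 in dry drops. The 962 had medians of -0.57 and -1.88, and against hydrated of -0.79 at early desiccation and -1.39 in dry drops. At the median of both lists, dry drops stood on the same side of hydrated as rehydrated drops did, and so did early desiccation. The lists were chosen for a difference from the hydrated libraries, which these medians reuse, so the choice itself favours that side. Both lists were less expressed than the genes with the same call. The median over genes of the mean CPM was 15.9 for the 590, beside 41.6, and 8.51 for the 962, beside 13.0. A missed threshold does not show that these genes did not differ in dry drops.

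Genes that the assembler placed in one component, which can be related copies or pieces of one gene, were mostly called in the same direction. Of 950 components with at least 2 tested genes, 297 had at least 2 called genes, and these were all higher in 179 components and all lower in 92. In the other 26 they went both ways. Of all called genes 52.2% were higher, and the agreement within components was not tested. The largest component, TRINITY_DN76436_c9, held 19 tested genes and was taken for its size. Its genes summed to 8949 and 8921 CPM in the rehydrated libraries, against 4126 and 4211 CPM in the hydrated libraries. In it 18 genes were called higher, with log2 fold changes of 0.81 to 2.12, where 22.0% of all tested genes were called higher. The other gene had a log2 fold change of 0.74 (SE 0.29, edgeR adjusted p = 0.0542). Its summed level was 4640.0 and 4437 CPM at early and 4760.0 and 4826 CPM at late desiccation, and 16824 and 13474 CPM in dry drops. This component was thus near its hydrated level while water was being lost, and its rehydrated libraries lay between its hydrated and its dry ones. Genes of a component can share reads, so the 19 are not independent of each other.

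Longer genes were called higher more often. By relative length, derived from the ratio of the deposited tables, 29.2% of the longest quartile were higher and 21.0% lower in rehydrated drops, beside 18.7% and 19.9% of the shortest quartile. With each library's trend with length removed, 2203 genes were higher and 2213 lower, of which 2146 and 2063 were among the 2307 and 2116.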

How the data were processed

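The members and groupings were chosen with earlier results of these data known. Per the labels' protocols, ribosomal RNA was removed with oligos during library preparation. Tools named in the submitters' processing notes, without roles, are RSEM 1.2.28, Bowtie2 2.2, DESeq2, Trimmomatic 0.35 and CASAVA 1.4. One deposited table gives expected counts by assembled gene, and its unequal totals show no normalisation. The other gives a deposited expression signal that, by its name, the authors scaled with TMM. How the transcripts were assembled or annotated is not given in the sources used here. Table columns and samples were joined on replicate number and time.

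Expected counts were rounded. Genes were kept with filterByExpr (minimum count 10, minimum total 15), which removed 6681 genes with 0.155% to 1.17% of a library's counts. Totals of the 10 libraries ran from 1696655 to 5409197 counts. An edgeR 4.0.16 quasi-likelihood model (R 4.3.3, TMM) took in all 10 libraries, with 5 stages as the only terms, so that stages with 2 libraries share an estimate of the spread. Tests were two-sided with Benjamini-Hochberg adjustment over all tested genes. A standard error is the size of the log2 fold change divided by the square root of F, and 95% intervals use its t distribution. Log2 CPM used a prior count of 2. The floor of 3 counts covers counting error only. Relative length is the count over the deposited value, centred per library.

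The rule for named genes took, in each direction, the gene with the largest fold among those with at least 10 counts in each of the 4 libraries and the gene with the largest difference of mean CPM. Both had to have an adjusted p below 0.05, no overlap of libraries and at least 5 CPM in the higher stage. Lists by function were not tested, since identifiers carry no names. Alternatives were limma 3.58.1 on the log2-transformed deposited signal (pseudocounts of 1 and 0.1, and a minimum mean of 1), DESeq2 1.42.0, median-of-ratios factors, library totals, no filter, a filter at 5 CPM in 2 libraries, only the 2 stages, the replicate number as a block, thinning, length trend, a 2-fold minimum and leaving out each library. Leaving out both late libraries and setting level quartiles by 1 stage were added after the data were seen.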

Additional observations from a re-analysis of the deposited data

How the results depend on the processing

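The counts of genes called in rehydrated against hydrated drops stayed within 1.5 times the reported ones under every alternative but the 2-fold minimum, which by its construction calls fewer genes: 2382 in all, 1371 higher and 1011 lower. No gene called in one direction was called in the other under any alternative. With all 4 libraries kept, the other totals ran from 3658 with DESeq2 to 4419 with median-of-ratios factors and 4423 with the replicate number as a block. Leaving out 1 library of the pair gave 3255 to 3954 genes, with 1782 to 2132 higher and 1473 to 1822 lower, the lone library being assumed to vary like the other stages. With library totals alone, the share of lower genes also lower in dry against early desiccation was 86.2%. Leaving out 1 dry or early library put the shares at 62.9% to 66.7% for higher and 39.0% to 46.4% for lower genes. Over the tested genes the median log2 fold change was -0.14 with median-of-ratios factors, -0.14 with the length trend removed and -0.35 with library totals. The 4 named genes kept their direction and call in all 8 alternatives run for each, with edgeR or DESeq2 adjusted p of at most 0.0155.

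The replicate numbers were not taken to pair the libraries, since the differences of replicate 1 and 2 correlated at 0.06 between rehydrated and hydrated across genes. The highest such correlation of any 2 stages was 0.14, between rehydrated and dry. With the replicate block, which changed no call of a named gene, 2326 genes were higher and 2097 lower, and 73.0% of higher and 53.2% of lower genes had the same call in dry against early desiccation. Depth limits the lowest quartile of expression, where no interval lay inside a 2-fold difference.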

Other observations

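In 26 of the 297 assembly components with at least 2 called genes (8.75%), called genes of the same component went in opposite directions between rehydrated and hydrated drops. The summed level of these components had a median log2 ratio, rehydrated over hydrated, of 0.05, and ran from -1.49 to 2.19. In 18 of the 26 the sum differed by less than 2-fold. Genes of a component can share reads, and whether these are related copies or pieces of one transcript was not tested.

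The 45 genes that were higher in rehydrated than in hydrated drops but lower in dry drops than at early desiccation had medians over hydrated of 1.01 at early and 0.67 at late desiccation, -0.34 in dry drops and 1.12 in rehydrated drops. Of these, 23 had their highest stage mean in rehydrated drops. The 23 genes with the opposite pattern had medians of -2.03, -2.22, -0.75 and -1.40, and 4 of them had their lowest mean in rehydrated drops. Both lists were chosen on these libraries and were not tested.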
